A study of Mus musculus with 9 samples.

Results

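Oocyte-specific and maternal-effect genes were followed in whole ovaries of C57BL/6J mice aged 15 weeks, after 10 weeks on a diet. A list of 34 genes was matched to the deposited gene table by RefSeq transcript identifier, current and former symbols included. A row was found for 33 of the 34 and 32 were kept, those reaching 1 FPKM in some group, out of 33450 rows in the table and 16935 rows at that level. The groups were 3 mice fed a 60% fat diet that became obese (HFOB), 3 fed the same diet that stayed lean (HFLN) and 3 fed standard chow with 16% fat (control). The split of diet-fed mice into HFOB and HFLN followed their response and was not assigned, and no group carries a transgene or mutation per the labels. Levels are in the FPKM that the authors deposited, a fragment count scaled to transcript length and library size, with 1 value per group, a deposited lower and upper bound, and no value for a single animal. No p-value, SD or n can therefore be given, and every difference below is without a replicate check. Bounds are given in parentheses, at a confidence level that the labels do not state.

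The threshold kept Dazl, at 1.03 FPKM in control and just under 1 in both diet groups, and left out Gpr3, a receptor that keeps cyclic AMP high in the oocyte and holds it in meiotic arrest, at 0.670 FPKM in HFOB, 0.683 in HFLN and 0.777 in control. No row carried an identifier of Oog1. The row at its position (chromosome 12, 87602665 to 87608845 in GRCm38.p6) carried those of Gm2042, at 1.08 FPKM in HFOB, 1.00 in HFLN and 0.886 in control, and was not counted.

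The oocyte makes its own regulators, coat proteins and growth factors, and stores RNA and protein that the embryo uses before its own genome is active. Transcription factors of the germ cell act from the time primordial follicles form and switch on many oocyte genes, among them those of the zona pellucida, the coat around the oocyte. Products needed by the embryo but made by the mother's oocyte are called maternal-effect products. They include the subcortical maternal complex, a protein assembly under the oocyte membrane, and chromatin proteins of the egg.

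Markers of the ovary were present, granulosa markers at a sum of 2313 FPKM in HFOB, 2179 in HFLN and 2629 in control. Most of each sum was Inha, at 1465 FPKM in HFOB, 1360 in HFLN and 1712 in control. The row of Hsd17b1 also carries Coasy, Mlx and Naglu, and that of Foxl2 also carries Faim. Of the 9 granulosa markers, 6 were lower in HFOB than in control and 8 were lower in HFLN. Markers of oviduct epithelium and cilia were present as well, and 7 of 7 were lower in HFOB and higher in HFLN than in control, at sums of 387 FPKM in HFOB, 627 in HFLN and 483 in control, with no value at 0. Most of each sum was Ovgp1, at 307 FPKM in HFOB, 432 in HFLN and 369 in control, and its lower bound was 0 in HFLN. Surface epithelium markers summed to 339 FPKM in HFOB, 419 in HFLN and 349 in control, with 7 of 7 higher in HFLN than in control. The largest of them was Krt19, whose lower bound was 0 in HFOB and control. Luteal markers summed to 1703 FPKM in HFOB, 1345 in HFLN and 2921 in control, most of it Akr1c18, while 2 of 4 were higher in HFLN than in control. The row of Akr1c18 also carries Akr1c12, and its lower bound was 0 in each group. Erythrocyte markers summed to 178 FPKM in HFOB, 135 in HFLN and 240.0 in control, with 3 of 3 rows lower in each diet group. Adipocyte markers summed to 186 FPKM in HFOB, 116 in HFLN and 111 in control, with 4 of 5 higher in HFOB than in control. Among these 4, Lep reached 1 FPKM only in HFOB, so its higher value there followed from the threshold. The marker sums differ between the groups, and their part in the values of oocyte genes was not tested.

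Across all 32 genes the groups lay close together, and no gene met the rule for a difference. The rule asked for a fold of at least 2 on the log2(FPKM + 1) scale with deposited bounds that do not overlap. It was met by 0 of 32 genes in each comparison, against 0.366% of 16929 rows tested in HFOB against control, 0.283% of 16932 in HFLN against control and 0.195% of 16931 in HFOB against HFLN. Without the condition on the bounds it was again met by 0 of 32, against 1.28% of all rows in HFOB against control, 1.47% in HFLN against control and 1.23% in HFOB against HFLN. With shares this low over all rows, 0 of 32 does not set these genes apart. Plain FPKM ratios ran from 0.795 to 1.23 for HFOB over control, from 0.728 to 1.21 for HFLN over control and from 0.910 to 1.32 for HFOB over HFLN. For each of the 32 genes the bounds of all 3 groups overlapped. How many of all rows do the same was not counted, so the overlap cannot be read as particular to these genes.

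The bounds set what could have been seen. Their half-width ran from 33.2% of the FPKM, with a median of 50.9%, to 98.7%. Bounds of that width around equal values would separate only at a ratio of 1.99 for the narrowest and 3.07 at the median. A smaller difference was not detectable by this rule, which does not show that the groups are alike. In whole ovary, fewer oocytes and less of a transcript per oocyte cannot be told apart.

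In direction, 24 of 32 genes had a higher value in HFOB than in control, against 47.0% of all rows tested, with a median log2 fold of 0.07 against -0.01 over all rows. For HFLN against control the count was 15 of 32, against 50.1% of all rows, with medians of -0.02 and 0.00037. Dazl, kept only through control, is counted as lower in both comparisons with control, which followed from the threshold. With a trend in transcript length and GC content removed, 20 of 32 were higher in HFLN than in control, 25 in HFOB than in control and 24 in HFOB than in HFLN. Between HFOB and HFLN, 21 of 32 were higher in HFOB, against 47.7% of all rows, with medians of 0.07 and -0.01. These counts cover genes that mostly share the oocyte as their source and are not independent of each other. Both comparisons with control use the same control values. Summed over the 32 genes the level was 611 FPKM in HFOB, 571 in HFLN and 580 in control, which is 0.120%, 0.123% and 0.107% of the summed FPKM of protein-coding rows in the same order. Ordered by level, Dazl was lowest in each group and Gdf9, Zp3, Zar1, Padi6 and Tle6 were the 5 highest in each, while all 31 pairs of neighbours in the order had overlapping bounds.

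**Figure D1:**
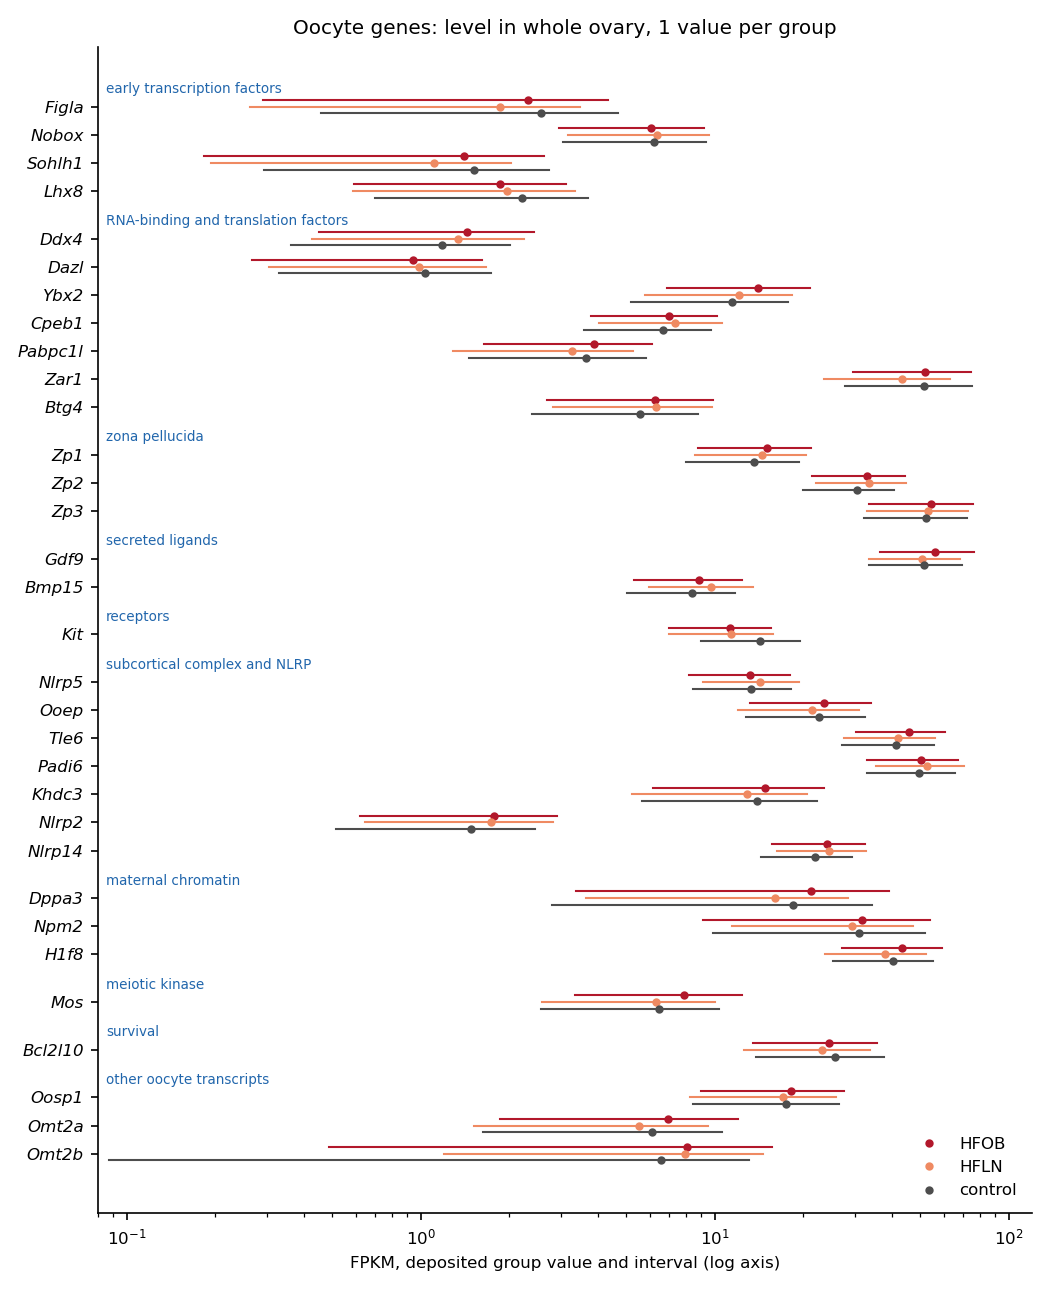
FPKM of each of the 32 kept genes (log axis) in HFOB, HFLN and control, by role; points are the deposited group values and lines the deposited bounds. For every gene the 3 lines overlap, and the levels span from about 1 FPKM for Dazl to 56.3 FPKM for Gdf9 in HFOB.

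The early transcription factors were low in level, and all 4 had a lower value in HFOB than in control. Nobox stood above control under 1 of 4 other scalings, which were a pseudocount of 0.1 FPKM, centring on protein-coding rows or on other oocyte genes, and removal of a trend in length and GC content. Figla, a basic helix-loop-helix factor needed to form primordial follicles and to express zona genes, stood at 2.31 FPKM in HFOB (0.289 to 4.34), 1.87 in HFLN (0.263 to 3.47) and 2.56 in control (0.456 to 4.67). Nobox, a homeobox factor needed for follicles to leave the primordial stage, stood at 6.09 FPKM in HFOB (2.96 to 9.22), 6.37 in HFLN (3.17 to 9.57) and 6.20 in control (3.05 to 9.36). Its 3 values lay close together. Sohlh1, a helix-loop-helix factor of germ cells upstream of other oocyte factors, stood at 1.41 FPKM in HFOB (0.183 to 2.63), 1.11 in HFLN (0.193 to 2.02) and 1.51 in control (0.292 to 2.73). Lhx8, a LIM-homeobox factor of the oocyte, stood at 1.86 FPKM in HFOB (0.592 to 3.12), 1.97 in HFLN (0.588 to 3.34) and 2.202 in control (0.701 to 3.70). Log2 folds of HFOB against control were -0.10 for Figla, -0.02 for Nobox, -0.06 for Sohlh1 and -0.16 for Lhx8, with a median of -0.08. Against control, HFLN had a median of -0.18, with Figla at -0.31 and Sohlh1 at -0.25 and only Nobox above 0. Between the diet groups Figla and Sohlh1 were higher in HFOB and Nobox and Lhx8 lower.

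The proximal promoters of these genes were read to see which letters they share, since Figla is known to act through E-boxes. RefSeq promoter windows (250 bases before to 50 after the start listed with each promoter, GRCm38.p6) were at hand for 24 of the 32 genes. None was at hand for Zp1, Zp2, Gdf9, Nlrp14, Dppa3, Npm2, Mos and Bcl2l10, which were not searched. The E-box written CAGGTG, searched on both strands, stood in 14 of the 24 (58.3%), against 22.1% of 17492 protein-coding genes. It is 1 form of the general E-box CANNTG, which stood in 22 of 24 (91.7%) against 72.1%. In 11 of the 24 (45.8%), against 4.73% of protein-coding genes, the CAGGTG form began between 90 and 40 bases before the start. That window was chosen after the positions were seen. The 11 were Nobox, Sohlh1, Cpeb1, Zar1, Btg4, Zp3, Padi6, Khdc3, H1f8, Oosp1 and Omt2a.

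The stretch from 110 bases before the start to 10 after it is shown for 9 of these 11 genes, covering early factors, a zona gene and late maternal genes, and for Kit, which lacks the letters in its window. Sequences are from RefSeq (GRCm38.p6), 5′ to 3′ on the strand of the gene, with CAGGTG or its reverse complement CACCTG in capitals. Those on the minus strand are Nobox (chr6:43309545-43309664), Sohlh1 (chr2:25847239-25847358), Zar1 (chr5:72581075-72581194), Padi6 (chr4:140742634-140742753) and Oosp1 (chr19:11691042-11691161). On the plus strand are Zp3 (chr5:135979995-135980114), Btg4 (chr9:51115891-51116010), Khdc3 (chr9:73102288-73102407), H1f8 (chr6:115944821-115944940) and Kit (chr5:75574877-75574996).
Nobox: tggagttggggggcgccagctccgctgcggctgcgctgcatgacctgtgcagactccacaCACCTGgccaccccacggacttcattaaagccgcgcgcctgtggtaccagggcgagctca
Sohlh1: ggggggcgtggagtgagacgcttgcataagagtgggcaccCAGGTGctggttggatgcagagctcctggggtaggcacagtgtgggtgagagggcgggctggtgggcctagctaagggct
Zp3: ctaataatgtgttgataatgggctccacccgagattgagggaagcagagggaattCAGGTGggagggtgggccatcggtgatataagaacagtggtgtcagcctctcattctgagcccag
Zar1: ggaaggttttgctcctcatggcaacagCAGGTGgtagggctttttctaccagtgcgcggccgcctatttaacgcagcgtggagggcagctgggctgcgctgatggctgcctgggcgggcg
Btg4: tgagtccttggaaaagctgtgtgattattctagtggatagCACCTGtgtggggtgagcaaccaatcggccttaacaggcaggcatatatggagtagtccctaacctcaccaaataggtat
Padi6: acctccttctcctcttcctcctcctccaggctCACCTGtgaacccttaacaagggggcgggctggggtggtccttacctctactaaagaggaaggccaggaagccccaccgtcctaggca
Khdc3: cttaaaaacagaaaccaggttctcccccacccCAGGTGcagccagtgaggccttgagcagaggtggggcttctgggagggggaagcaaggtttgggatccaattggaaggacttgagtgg
H1f8: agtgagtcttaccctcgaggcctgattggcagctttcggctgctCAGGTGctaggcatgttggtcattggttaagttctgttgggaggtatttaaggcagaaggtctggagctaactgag
Oosp1: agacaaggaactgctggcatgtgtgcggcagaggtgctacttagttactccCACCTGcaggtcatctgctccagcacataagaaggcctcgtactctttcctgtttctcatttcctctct
Kit: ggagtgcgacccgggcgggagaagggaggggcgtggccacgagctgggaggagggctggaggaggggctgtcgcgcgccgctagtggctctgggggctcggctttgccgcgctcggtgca

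The capitals begin 50 bases before the start in Nobox, 55 in Zp3, 59 in Oosp1, 66 in H1f8, 70 in Sohlh1 and Btg4, 78 in Padi6 and Khdc3 and 83 in Zar1. In Nobox, Zar1, Btg4 and Khdc3 the stretch shown lies inside the RefSeq gene span, which for Btg4 is 51102147 to 51119924. The start used for these genes is therefore not the 5′ end of that span, and the stretch is not upstream of the whole gene. A match of letters is a description and not a binding site. The other letters searched were less frequent: the NOBOX element TAATTG stood in 3 of 24 promoters against 7.96% of protein-coding genes, the LHX8 element TGATTG in 5 of 24 against 16.7%, and the TATA form TATAAA in 3 of 24 against 14.8%. The 11 genes with the E-box in the window had a median level of 14.9 FPKM in HFOB, 12.9 in HFLN and 14.0 in control. The 13 genes without it had 8.06 FPKM in HFOB, 7.92 in HFLN and 6.57 in control. Median log2 folds were 0.06 with the letters and 0.07 without in HFOB against control, -0.03 and 0.02 in HFLN against control, and 0.09 and 0.02 in HFOB against HFLN.

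**Figure D2:**
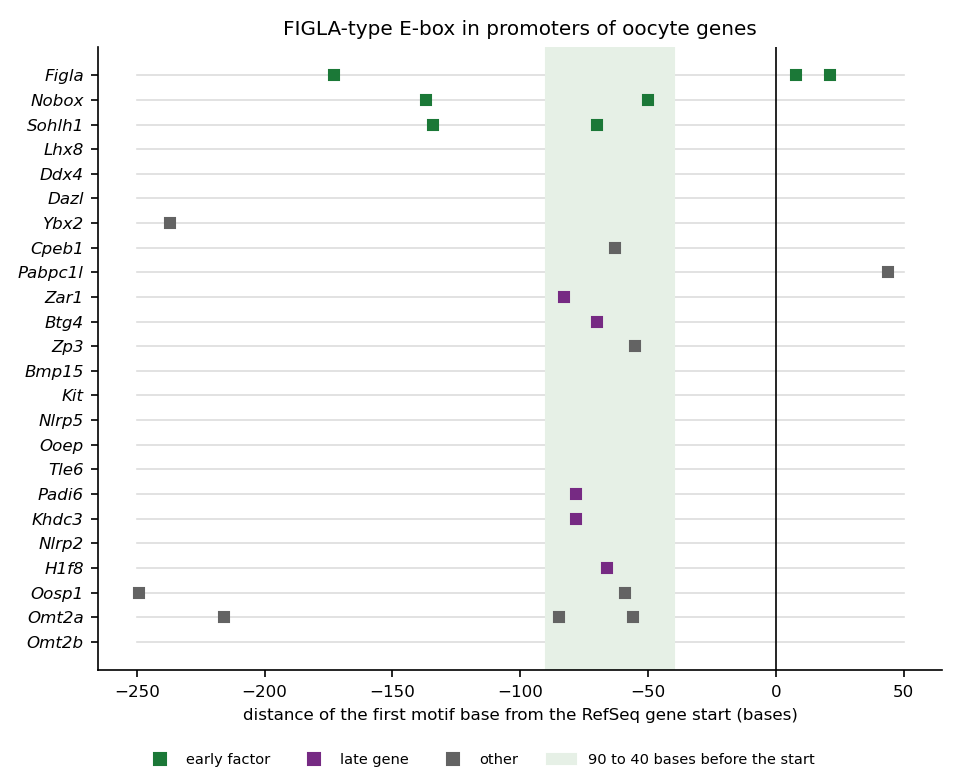
Distance of each FIGLA-type E-box from the start listed with each RefSeq promoter (bases) in 24 oocyte genes. In some genes this start lies inside the gene span. Squares are matches on either strand, green for early factors, purple for late genes and grey for others. Matches in 11 genes fall in the shaded window 90 to 40 bases before the start.

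Transcripts of proteins that bind and store RNA in the germ cell ranged widely in level, and none of the 7 met the rule. Ddx4, an RNA helicase found in germ cells, stood at 1.44 FPKM in HFOB (0.451 to 2.43), 1.34 in HFLN (0.425 to 2.25) and 1.18 in control (0.363 to 2.00), and Dazl, which promotes translation of germ-cell RNA, at 0.942 FPKM in HFOB (0.265 to 1.62), 0.985 in HFLN (0.304 to 1.67) and 1.03 in control (0.330 to 1.74). Ybx2, a protein that coats and stabilises stored messenger RNA, stood at 14.0 FPKM in HFOB (6.90 to 21.1), 12.1 in HFLN (5.78 to 18.3) and 11.5 in control (5.19 to 17.8). Its log2 fold of 0.27 in HFOB against control was the highest of the 32 genes in that comparison. Cpeb1, which controls polyadenylation of dormant messages, stood at 6.99 FPKM in HFOB (3.79 to 10.2), 7.30 in HFLN (4.05 to 10.6) and 6.66 in control (3.59 to 9.72), and Pabpc1l, a poly(A)-binding protein of the oocyte, at 3.88 FPKM in HFOB (1.64 to 6.11), 3.27 in HFLN (1.29 to 5.26) and 3.65 in control (1.45 to 5.84). Zar1, which binds maternal messages and is needed after fertilisation, stood at 51.9 FPKM in HFOB (29.5 to 74.3), 43.3 in HFLN (23.5 to 63.1) and 51.4 in control (27.8 to 75.1). Its value was lowest in HFLN, at a log2 fold of -0.24 against control. Btg4, an adaptor that brings the deadenylase to maternal messages for their removal, stood at 6.28 FPKM in HFOB (2.69 to 9.87), 6.30 in HFLN (2.83 to 9.78) and 5.58 in control (2.39 to 8.76). Of these 7 genes, 6 were higher in value in HFOB than in control, where Zar1 stood on the other side under 1 of 4 other scalings, and 4 were higher in HFLN. Dazl was kept only through control, so its lower value in both diet groups followed from the threshold.

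The zona pellucida genes had a slightly higher value in both diet groups than in control, and their proportions were alike in the 3 groups. Zp1, which links zona filaments, stood at 15.0 FPKM in HFOB (8.78 to 21.2), 14.5 in HFLN (8.59 to 20.4) and 13.6 in control (7.96 to 19.3). Zp2, the zona protein that sperm bind in the mouse, stood at 32.9 FPKM in HFOB (21.3 to 44.5), 33.4 in HFLN (22.1 to 44.6) and 30.4 in control (20.004 to 40.7). Zp3, its filament partner, stood at 54.4 FPKM in HFOB (33.4 to 75.4), 53.0 in HFLN (33.0 to 72.9) and 52.2 in control (32.1 to 72.2). All 3 were higher in HFOB and in HFLN than in control under each of 4 other scalings, with medians of 0.11 and 0.08. The ratio of Zp3 to Zp2 was 1.65 in HFOB, 1.59 in HFLN and 1.72 in control, and that of Zp1 to Zp2 was 0.456, 0.434 and 0.449 in the same order. The row of Zp3 spans 3.33 times the gene and overlaps Ssc4d, so its level and its ratio to Zp2 are uncertain.

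Among secreted ligands, the growth factor genes Gdf9 and Bmp15, whose products act on granulosa cells around the oocyte, had their highest values in different groups, Gdf9 in HFOB and Bmp15 in HFLN. Gdf9 stood at 56.3 FPKM in HFOB (36.6 to 76.0), 50.7 in HFLN (33.4 to 68.1) and 51.4 in control (33.3 to 69.5) and was the most abundant of the 32 genes in HFOB, while Zp3 was in HFLN and control. Bmp15 stood at 8.86 FPKM in HFOB (5.33 to 12.4), 9.73 in HFLN (5.95 to 13.5) and 8.38 in control (5.02 to 11.7). The ratio of Gdf9 to Bmp15 was 6.36 in HFOB, 5.21 in HFLN and 6.14 in control.

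Kit, the receptor by which the oocyte receives Kit ligand from granulosa cells, had the lowest log2 fold of the 32 genes in HFOB against control. It stood at 11.3 FPKM in HFOB (7.00 to 15.6), 11.4 in HFLN (7.00 to 15.7) and 14.2 in control (8.97 to 19.4), with log2 folds of -0.31 in HFOB and -0.30 in HFLN against control. The value was lower in both diet groups under each of the 4 other scalings, though control is shared and the bounds overlap. Kit is not confined to oocytes, and is also made by theca and interstitial cells and by mast cells. The 4 theca and steroid markers summed to 3529 FPKM in HFOB, 3506 in HFLN and 4163 in control, and 3 of 4 were lower in each diet group. Most of each sum was Cyp11a1, whose lower bound was 0 in each group. Star was higher in each diet group, and the row of Insl3 also carries Jak3. All 4 mast cell markers were higher in each diet group, at a sum of 12.2 FPKM in HFOB, 13.8 in HFLN and 10.4 in control, and none was at 0. Their part in the value of Kit was not tested. Kitl, the ligand, stood at 15.1 FPKM in HFOB, 17.2 in HFLN and 15.1 in control.

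The subcortical maternal complex and related NLRP genes lay close to control in both diet groups. Nlrp5 (MATER), a core subunit, stood at 13.1 FPKM in HFOB (8.20 to 18.1), 14.2 in HFLN (9.12 to 19.3) and 13.3 in control (8.46 to 18.1), and Ooep (FLOPED), which joins it in the complex, at 23.5 FPKM in HFOB (13.2 to 33.9), 21.5 in HFLN (12.0 to 31.0) and 22.6 in control (12.8 to 32.3). Tle6, another subunit, stood at 45.6 FPKM in HFOB (30.3 to 60.9), 41.9 in HFLN (27.6 to 56.3) and 41.4 in control (27.2 to 55.5). Padi6, a peptidylarginine deiminase family member needed for oocyte cytoplasmic lattices, stood at 50.1 FPKM in HFOB (32.9 to 67.4), 52.8 in HFLN (35.3 to 70.4) and 49.4 in control (32.9 to 65.8). These 4 genes were all within a log2 fold of 0.14 of control. Khdc3 (FILIA), a KH-domain subunit, stood at 14.9 FPKM in HFOB (6.17 to 23.6), 12.9 in HFLN (5.22 to 20.6) and 14.0 in control (5.66 to 22.3). Nlrp2, an NLRP family member also linked to the complex, stood at 1.77 FPKM in HFOB (0.622 to 2.91), 1.74 in HFLN (0.645 to 2.83) and 1.48 in control (0.516 to 2.45), and Nlrp14, an oocyte NLRP gene, at 24.0 FPKM in HFOB (15.7 to 32.4), 24.6 in HFLN (16.3 to 32.8) and 21.8 in control (14.4 to 29.3). In HFOB 6 of the 7 were higher than in control, with a median of 0.09, and in HFLN 5 of the 7, with a median of 0.09. Padi6 in HFOB and Tle6 in HFLN stood below control under 1 of 4 other scalings. The ratio of Padi6 to Nlrp5 was 3.82 in HFOB, 3.72 in HFLN and 3.71 in control.

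All 3 maternal chromatin genes had a value above control in HFOB and below it in HFLN. Dppa3 (STELLA), which protects maternal DNA methylation in the zygote, stood at 21.2 FPKM in HFOB (3.38 to 39.1), 16.1 in HFLN (3.64 to 28.5) and 18.5 in control (2.79 to 34.2), a ratio of 1.32 for HFOB over HFLN and the highest of the set. H1f8, the linker histone of the oocyte, stood at 43.2 FPKM in HFOB (27.0 to 59.4), 38.0 in HFLN (23.7 to 52.2) and 40.3 in control (25.2 to 55.4). Npm2, a nucleoplasmin that remodels chromatin in the egg, stood at 31.6 FPKM in HFOB (9.14 to 54.1), 29.3 in HFLN (11.5 to 47.1) and 30.9 in control (9.88 to 52.0). Median log2 folds were 0.10 for HFOB against control, -0.08 for HFLN against control and 0.18 for HFOB against HFLN. Against control the direction was not stable for all of them: in HFLN the highest values over 4 other scalings were 0.02 for H1f8 and 0.03 for Npm2, and in HFOB the lowest for Npm2 was -0.02. The transcripts of these 3 genes are all under 1500 nt. Of protein-coding rows that short, 28.0% were higher in HFLN than in control and 37.5% in HFOB than in control. Their median log2 folds were -0.12 and -0.05. The part of length in the values of these 3 genes was not tested. The row of Npm2 also carries identifiers of Xpo7. The row of Dppa3 spans 7.32 times the gene and overlaps Gdf3, and 54.1% of its transcript is 98.2% identical to that of Dppa3-ps, so both values are uncertain. Those of Zar1, Khdc3 and Tle6 are too, since parts of their transcripts are 95.2%, 98.3% and 92.4% identical to Gm15847, Gm20509 and Gm9136. The row of Tle6 also overlaps Tle2, and those of Btg4 and Nlrp14 cover only 0.224 and 0.368 of the gene span.

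Of the remaining 5 genes, 4 had a higher value in HFOB than in control and 1 in HFLN than in control, and none met the rule. Mos, the kinase that holds the mature egg in meiotic arrest, stood at 7.85 FPKM in HFOB (3.34 to 12.4), 6.32 in HFLN (2.58 to 10.0) and 6.44 in control (2.56 to 10.3), with a log2 fold of 0.25 in HFOB against control. Bcl2l10, a BCL2 family member of the oocyte, stood at 24.6 FPKM in HFOB (13.5 to 35.6), 23.1 in HFLN (12.6 to 33.6) and 25.7 in control (13.9 to 37.6), lower in both diet groups in value. Oosp1, an oocyte-secreted protein, stood at 18.2 FPKM in HFOB (8.94 to 27.5), 17.0 in HFLN (8.23 to 25.9) and 17.5 in control (8.41 to 26.5). Omt2a and Omt2b, transcripts of oocyte maturation, stood at 6.92 FPKM in HFOB (1.85 to 12.0), 5.52 in HFLN (1.51 to 9.52) and 6.09 in control (1.63 to 10.6) and at 8.06 FPKM in HFOB (0.486 to 15.6), 7.92 in HFLN (1.20 to 14.6) and 6.57 in control (0.0869 to 13.04). The lower bound of Omt2b nearly reaches 0 in control. These 2 genes lie 13.2 kb apart and 45.2% of the Omt2b transcript is 99.7% identical to Omt2a, so reads may have been split between them. Omt2b is also given a row 21.4 times as long as the gene.

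Several of the genes are neighbours in the genome. Ooep (chromosome 9, 78376903 to 78378588) lies 47.3 kb from Omt2b (chromosome 9, 78328030 to 78329620), next to Omt2a. Zp1 and Oosp1 lie 747 kb apart on chromosome 19. In all, 6 of the 32 genes are on chromosome 9 and 5 on chromosome 7, where Zp2 and the 3 Nlrp genes are. Positions are RefSeq gene spans in GRCm38.p6. The 3 neighbours on chromosome 9 did not share a direction in HFLN against control, at log2 folds of -0.07 for Ooep, -0.12 for Omt2a and 0.24 for Omt2b.

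Early transcription factors and late maternal-effect genes were set side by side. The 12 late genes were Nlrp5, Ooep, Tle6, Padi6, Khdc3, Nlrp2, Nlrp14, Dppa3, Npm2, H1f8, Zar1 and Btg4. In HFOB against control 0 of 4 early factors and 11 of 12 late genes were higher, with median log2 folds of -0.08 and 0.09, though Nobox, Zar1, Padi6 and Npm2 each changed side under 1 of 4 other scalings. For HFLN against control 1 of 4 and 6 of 12 were higher, with medians of -0.18 and -0.02. In HFOB against HFLN 2 of 4 and 8 of 12 were higher, with medians of 0.07 and 0.11. Summed early factors came to 11.7 FPKM in HFOB, 11.3 in HFLN and 12.5 in control, which is 3.57%, 3.74% and 4.02% of the summed late genes. Early factors were low in level: Figla, Sohlh1 and Lhx8 were all under 3 FPKM, with half-widths in HFOB of 87.5%, 87.0% and 68.1% of the value. With at least 5 FPKM required, only Nobox was left, and in HFLN against control it stood above the median of the late genes.

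**Figure D3:**
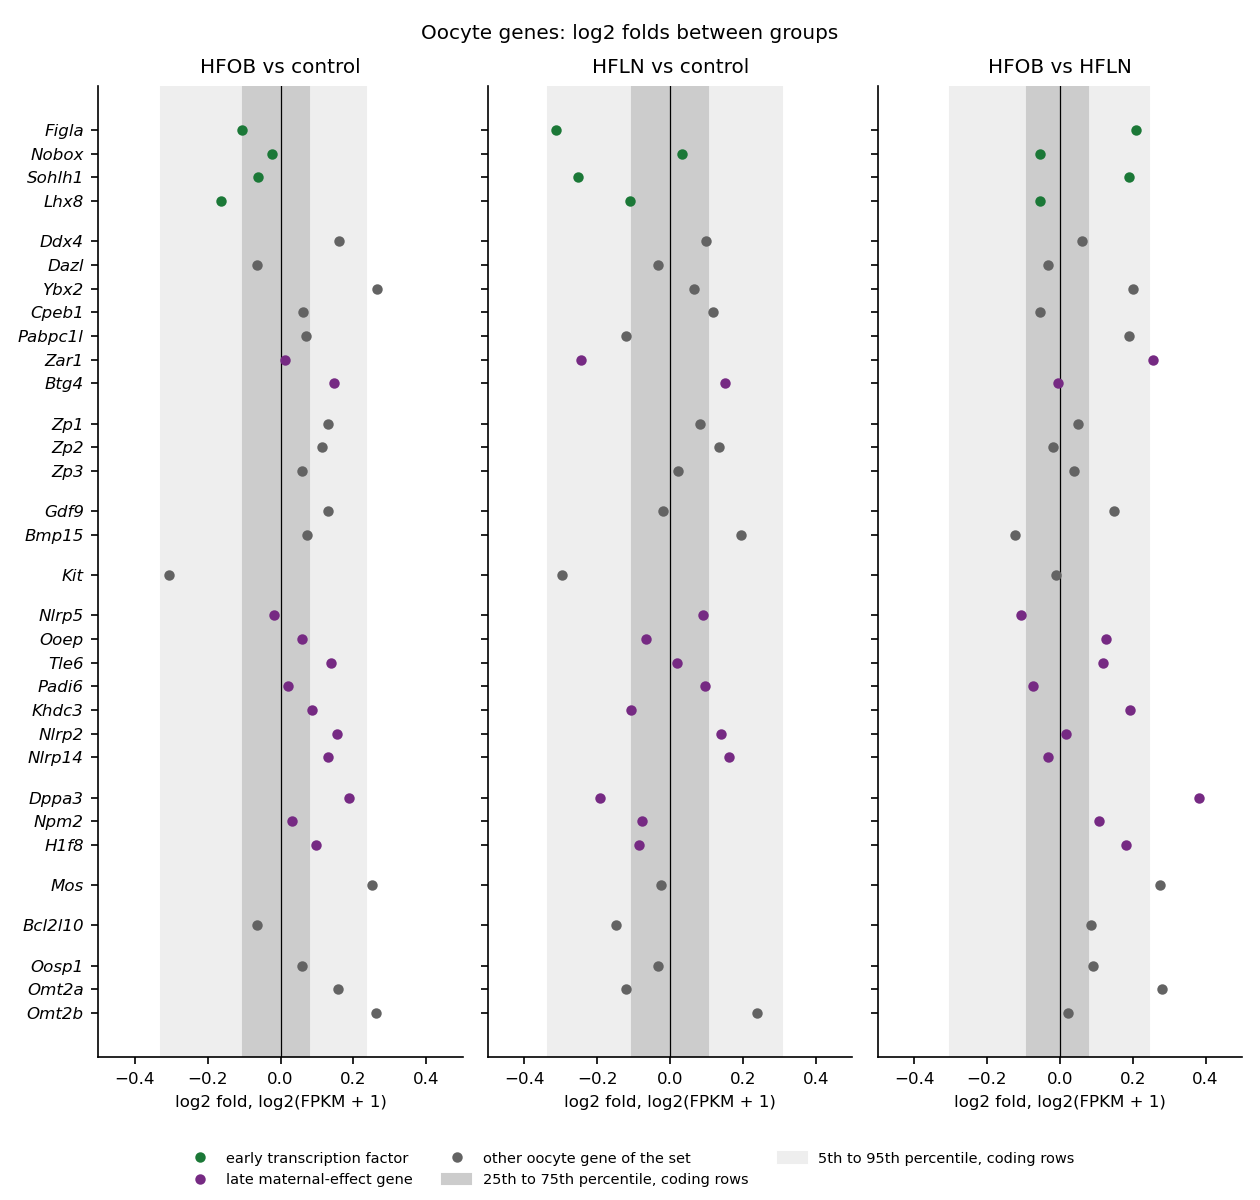
Log2 fold on the log2(FPKM + 1) scale of each of the 32 genes in HFOB against control, HFLN against control and HFOB against HFLN, by role; dark and light bands hold the central 25th to 75th and 5th to 95th percentiles of protein-coding rows. Most points lie within the light band, and Dppa3 has the highest value between HFOB and HFLN, at 0.38.

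Differences between HFOB and HFLN varied with the length of the transcript. Lengths are those of the transcript in GENCODE mouse release 21 matched to each gene's RefSeq identifier. Among 13 genes under 1500 nt, 12 were higher in HFOB than in HFLN, with a median log2 fold of 0.18, and among 19 longer ones 9 were, with a median of -0.01. The limit of 1500 nt was chosen after the values were seen. Across the 32 genes Spearman's rho between length and log2 fold was -0.63 for HFOB against HFLN, 0.40 for HFLN against control and -0.13 for HFOB against control. Genes are not independent replicates and these share libraries and length scaling, so rho is a description.

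Over protein-coding rows rho had the same sign as across the 32 genes in 2 comparisons, at -0.23 over 13607 rows for HFOB against HFLN and 0.24 over 13609 rows for HFLN against control. For HFOB against control it had the other sign, at 0.10 over 13606 rows. Of the rows under 1500 nt, 68.3% were higher in HFOB than in HFLN, against 42.6% of the longer ones. After the trend in length and GC content over protein-coding rows had been removed, rho across the 32 genes was -0.39 for HFOB against HFLN, 0.14 for HFLN against control and -0.29 for HFOB against control, the last farther from 0 than before. In HFOB against HFLN 11 of the 13 shorter genes and 13 of the 19 longer ones were then higher, with medians of 0.13 and 0.04. The median of all 32 genes was then 0.08 in HFOB against HFLN, 0.03 in HFLN against control and 0.11 in HFOB against control. Dppa3 (833 nt) kept a high value in HFOB against HFLN under each scaling tried, between 0.36 and 0.40.

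**Figure D4:**
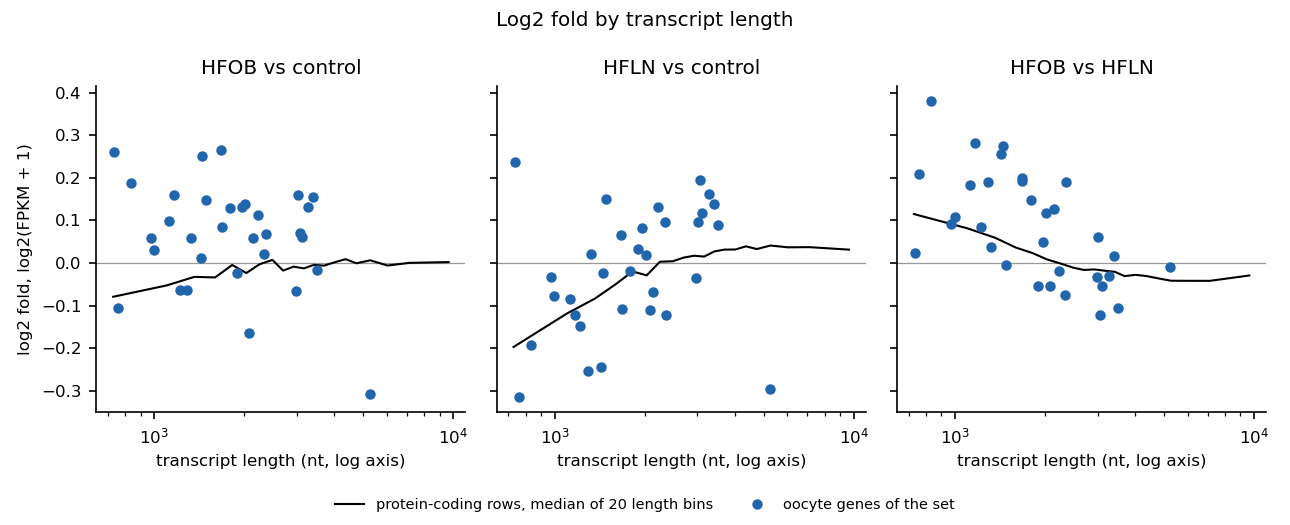
Log2 fold of each of the 32 genes (points) against the length of its transcript (nt, log axis) in the 3 comparisons; the line joins medians of 20 length bins of protein-coding rows. Points slope downward in HFOB against HFLN, with rho of -0.63, and the line slopes the same way.

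Further oocyte genes that were not among the 32 also held no gene that met the rule. Of 38 listed, all had a row and 31 rows were kept, with 0 of 31 called in each comparison. Over all rows tested the rule was met by 0.366% in HFOB against control, 0.283% in HFLN against control and 0.195% in HFOB against HFLN. At such shares 0 of 31 does not set these genes apart. In HFOB against control 23 of 31 were higher, with a median of 0.05, in HFLN against control 18 of 31, with a median of 0.02, and in HFOB against HFLN 16 of 31, with a median of 0.0033. Of all rows tested 47.0%, 50.1% and 47.7% were higher in the same order. Zar1l, a relative of Zar1, had the highest log2 fold in HFOB against control (0.31), at 7.60 FPKM in HFOB, 5.35 in HFLN and 5.93 in control, and Tcl1, a maternal-effect gene, the next, at 17.0 FPKM in HFOB, 13.3 in HFLN and 13.5 in control. Lowest were Aurkc, a meiotic kinase, at 0.778 FPKM in HFOB, 1.00 in HFLN and 1.13 in control, and Dnmt3l, a cofactor of DNA methylation in the growing oocyte, at 1.56 FPKM in HFOB, 1.64 in HFLN and 1.97 in control. In HFLN against control Nlrp9c and Fmn2, an actin nucleator of the meiotic spindle, were highest, at log2 folds of 0.24 and 0.23. Bmp6 and Oosp2 were lowest there, at -0.24 and -0.21. Between HFOB and HFLN, Oosp2 (0.47) and Zar1l (0.44) were highest, with transcripts of 677 and 895 nt. Fmn2 (-0.20), at 6442 nt, and Sycp3 (-0.18) of the synaptonemal complex, at only 1139 nt, were lowest. Across these 31 rows Spearman's rho between length and log2 fold was -0.23 for HFOB against HFLN.

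A list of genes of the somatic cells around the oocyte also held none that met the rule, with 0 of 15 in any comparison. Some act in signals between granulosa cells and the oocyte, while Foxl2, Amh, Inha, Fshr and Fst are also among the granulosa markers above. Over all rows tested the rule was met by 0.366% or less in each comparison, so 0 of 15 does not set these genes apart. In HFOB against control 6 of 15 were higher, in HFLN against control 4 of 15 and in HFOB against HFLN 7 of 15, with medians of -0.08, -0.07 and -0.02. The shares of all rows that were higher were 47.0%, 50.1% and 47.7% in the same order. Bmpr2, a receptor that binds GDF9 and BMP15, stood at 23.0 FPKM in HFOB, 22.0 in HFLN and 20.98 in control, and Tgfbr1, a receptor GDF9 signals through, at 21.7 FPKM in HFOB, 22.3 in HFLN and 19.8 in control. These were the 2 highest in HFOB against control, at log2 folds of 0.13 and 0.13, while Fst, the activin-binding protein follistatin, and Inha, the inhibin alpha subunit, were lowest at -0.31 and -0.23. Bmpr1b and Kitl were highest in HFLN against control, at 0.18 and 0.18, and Inha and Fshr, the receptor for FSH, were lowest at -0.33 and -0.28. In HFOB against HFLN the highest were Fshr (0.16) and Inha (0.11) and the lowest Fst (-0.18) and Kitl (-0.17).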

How the data were processed

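RNA from whole ovaries of 9 mice (3 per group) was sequenced from stranded mRNA libraries, per the labels' protocols. The deposited table holds FPKM from Cuffdiff, 1 value per group with lower and upper bounds made by the authors. Per the submitters' processing notes, Trimmomatic 0.32.3, TopHat2 2.1.0, Cufflinks 2.2.1.0, Cuffdiff 2.2.1.3 and build mm10 were used. Not given in the sources used here: the annotation, the scaling between groups, the strand setting and the confidence level of the bounds. Read depth is unknown.

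RefSeq identifiers in each row were matched to mouse symbols, and 99.2% of 36886 matched. Per gene the row with the highest mean FPKM was taken and kept at 1 FPKM or more in any group. Log2 folds use log2(FPKM + 1). With 1 value per group no test between animals was possible, so a difference was called at a fold of at least 2 with bounds apart. All kept genes are named, and of each other list the 2 highest and 2 lowest folds per comparison. The genes and lists were chosen with earlier results of these data known. Lengths are of GENCODE release 21 transcripts; that of Ooep exceeds its RefSeq span. Copies were found with blastn 2.17.0. Python 3.11.15, pandas 2.3.3, numpy 2.4.6 and matplotlib 3.10.9 were used, and the calculations were tested on simulated data. Alternatives covered the pseudocount, the filter, the scaling, the row per gene and the call rule. Removal of the trend in length and GC content, and leaving out Npm2, Omt2b and Kit, were added after the data were seen.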

Additional observations from a re-analysis of the deposited data

How the results depend on the processing

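No gene of the 32 was called under any alternative run. The median log2 fold in HFLN against control, -0.02 as reported, was 0.019 with at least 5 FPKM required and 0.035 once the length and GC trend was taken out. The median of early factors minus that of late genes in HFLN against control, -0.16 as reported, was -0.26 with a pseudocount of 0.1 FPKM and 0.0998 with at least 5 FPKM required, where only Nobox is left of the early factors. In HFOB against HFLN this difference, -0.04 as reported, was 0.00085 with a pseudocount of 0.1 FPKM and -0.17 with at least 5 FPKM required. The cause was not tested for the changes with the pseudocount and the trend. Signs of single genes were the same in the reported setting and 4 other scalings for 28 of 32 genes in HFOB against control, 26 in HFLN against control and 25 in HFOB against HFLN. Leaving out a replicate could not be run. No paired analysis was possible because the table holds 1 value per group and no value per animal.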
